A study of Mus musculus with 7 samples.

Results

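Astrocytes and oligodendrocytes are the large glial cells of the brain, and 37 genes that mark them were followed in 7 mouse Group 3 medulloblastomas (G3 MBs). A gene was taken when its symbol in the deposited count table was on a list of lineage markers, and all 37 listed symbols were found among the 34592 genes of the table. The astrocyte lineage held 21 genes, of which 17 mark astrocytes and 4 are shared with radial glia (Slc1a3, Fabp7, Vim, Tnc). The oligodendrocyte lineage held 16 genes, of which 6 mark precursors and 10 belong to myelin. None of the 37 genes was at 3 or fewer counts in any tumor (the lowest count was 6), and all 37 were among the 17389 genes that entered the test.

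Astrocytes clear glutamate from synapses, are coupled to each other by gap junctions and line blood vessels with their endfeet. Radial glia are the stem cells of the developing brain and share filament, lipid-binding and transporter genes with astrocytes. Oligodendrocytes arise from precursors that carry the NG2 proteoglycan under the control of the transcription factors OLIG1, OLIG2 and NKX2-2, and then wrap axons in myelin. In the cerebral cortex, where these tumors were implanted, both lineages belong to the normal tissue.

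All 7 tumors came from 1 tumorsphere line (# 19568), so they share one origin. That line goes back to granule neuron progenitors with a retrovirus for Myc and GFP, which in this model are taken from the cerebella of 7-day-old Trp53-/-; Cdkn2c-/- mice. The spheres were infected 6 times over 2 days with a lentivirus carrying human WDR11 behind the EF1 promoter (WDR11OE, 4 tumors) or, in the methods, with the empty vector (control, 3 tumors), whereas the labels list "none" as the treatment of the controls. Cells were implanted unsorted into the cortex of CD1-nu/nu mice, which are 6 to 8 weeks old in this model, and the labels give tumor chunks as the source of RNA, so brain cells of the host can be part of each sample. The labels' source names speak of tumorspheres, and the methods call the sequenced samples tumors but name both tumorspheres and chunks where RNA extraction is described. In such bulk samples, fewer cells of a type and less RNA per cell cannot be told apart. Nothing in the sources ties the tumors to separate infected cultures, so the p-values measure only the spread between these tumors. Total counts lay between 33417175 and 41397427 in controls and between 32116095 and 87141305 in WDR11OE tumors. The libraries of both groups were numbered in separate series with 1 condition each, so series and condition cannot be told apart.

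The labels were first checked against WDR11 itself. The table has a row for the human gene, hWDR11, which stood at 2.03, 2.19 and 3.13 CPM (counts scaled to the effective library size) in controls 1 to 3 and at 4.38, 2.11, 3.05 and 0.624 CPM in WDR11OE tumors 1 to 4. The groups overlapped, and the lowest of all 7 values was in WDR11OE 4 (log2 fold change 0.05 ± 0.58 (SE), adjusted p = 0.961, by the quasi-likelihood F test in edgeR and Benjamini-Hochberg, as for each adjusted p that follows). Mouse Wdr11 stood at 58.9, 58.3 and 59.3 CPM in controls and at 66.8, 61.0, 65.7 and 68.9 CPM in WDR11OE tumors. Every WDR11OE value was above every control value, but the difference did not pass the threshold (log2 fold change 0.16 ± 0.06 (SE), adjusted p = 0.0910). The sources do not state how reads were shared between both rows. The human row therefore does not separate the groups, and each direction given here rests on the labels: "WDR11OE" stands throughout for the tumors labelled so. For tumors of this line, the paper reports more WDR11 transcript by quantitative PCR, and WDR11 protein in spheres grown from such tumors. It does not state whether the sequenced tumors were among those measured.

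Of the 21 astrocyte and radial glia genes, 2 rose in WDR11OE tumors (S100b, Fabp7), 1 fell (Vim) and 18 did not pass an adjusted p of 0.05. Among all genes tested, 18.1% rose and 15.8% fell. The median log2 fold change of the 21 genes was 0.05, beside 0.08 over all genes tested, and 11 were positive and 10 negative. Of the 16 oligodendrocyte lineage genes, none rose, 2 fell (Cspg4, Nkx2-2) and 14 did not pass. Their median was -0.19, with 2 positive and 14 negative, whereas 7681 of the 17389 genes tested were negative. A stricter call, which also asked for a 2-fold change and an average log2 CPM above 0, held for Fabp7 (2.36% of all genes were called higher) and for Nkx2-2 (3.45% were called lower). The groups did not overlap for S100b and Fabp7, which were higher, and for Cspg4 and Nkx2-2, which were lower, whereas 23.5% of all genes were higher and 19.1% lower without overlap. In neither lineage did the share of genes past an adjusted p of 0.05 exceed that among all genes tested in the same direction, so these counts give no result about the lineages. No oligodendrocyte lineage gene was higher at an unadjusted p under 0.05 either, and DESeq2 and limma with voom also gave 0 higher and 2 lower.

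**Figure D1:**
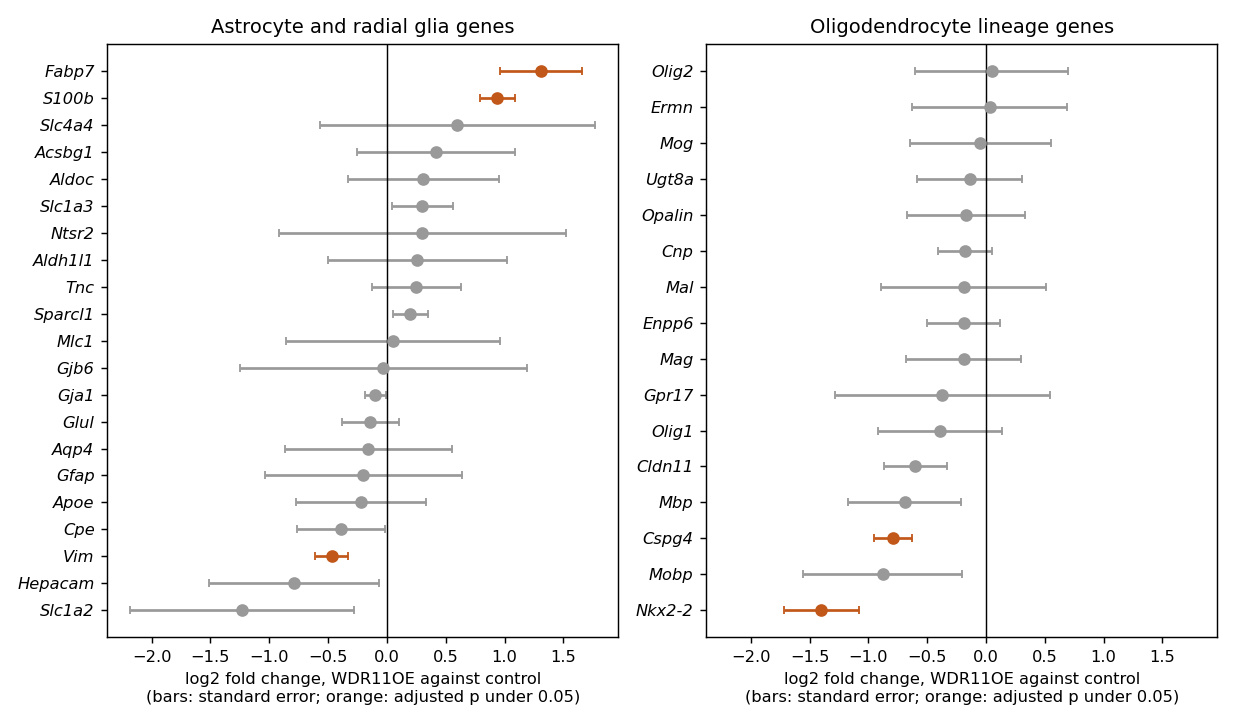
Each point is the log2 fold change of 1 gene between WDR11OE and control tumors, with its standard error as a bar, for astrocyte and radial glia genes on the left and oligodendrocyte lineage genes on the right. Orange points passed an adjusted p of 0.05: Fabp7 (1.31), S100b (0.94) and Vim (-0.47) on the left, Cspg4 (-0.79) and Nkx2-2 (-1.40) on the right.

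Sequences upstream of the start are shown for the 4 members whose groups did not overlap, since these are the members that set the tumors apart by label. They were taken from the RefSeq promoter table (GRCm38.p6), which holds an entry for 31 of the 37 members, and placed on NCBIM37, the build of the counts, by exact match. Each runs from 250 bases before the RefSeq start to the start or, where an exon is annotated earlier, to that exon. Capitals mark TTGGC or its reverse complement GCCAA, the half-site of the NFI factors, a family known for its role in the formation of glia.
S100b, chr10:75716331-75716580, plus strand, upstream of the annotated gene: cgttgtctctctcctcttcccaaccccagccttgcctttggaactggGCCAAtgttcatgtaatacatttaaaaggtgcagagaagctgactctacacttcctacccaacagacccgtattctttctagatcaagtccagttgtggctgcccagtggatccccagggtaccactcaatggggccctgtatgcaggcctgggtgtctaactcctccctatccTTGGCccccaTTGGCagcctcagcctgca
Fabp7, chr10:57504479-57504686, plus strand, upstream of the annotated gene: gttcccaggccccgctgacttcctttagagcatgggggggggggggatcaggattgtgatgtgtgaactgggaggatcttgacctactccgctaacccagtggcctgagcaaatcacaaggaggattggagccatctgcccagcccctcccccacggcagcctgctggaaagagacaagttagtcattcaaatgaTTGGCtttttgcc
Cspg4, chr9:56712661-56712910, plus strand, upstream of the annotated gene: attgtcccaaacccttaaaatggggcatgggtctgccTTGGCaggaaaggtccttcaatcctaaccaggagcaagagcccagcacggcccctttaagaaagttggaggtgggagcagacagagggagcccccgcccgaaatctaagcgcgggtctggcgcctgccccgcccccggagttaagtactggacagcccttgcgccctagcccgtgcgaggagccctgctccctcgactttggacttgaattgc
Nkx2-2, chr2:147012192-147012388, minus strand, between annotated exons of the gene: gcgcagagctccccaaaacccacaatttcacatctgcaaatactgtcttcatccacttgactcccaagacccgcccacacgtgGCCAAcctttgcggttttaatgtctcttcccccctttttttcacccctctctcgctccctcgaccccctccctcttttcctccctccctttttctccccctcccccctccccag

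The NFI half-site began 203, 29 and 19 bases upstream of the RefSeq start in S100b, 55 bases upstream in Fabp7, 213 bases upstream in Cspg4 and 167 bases upstream in Nkx2-2. Searched on both strands, it was found in 41.9% of the 27025 windows of 250 bases in the same table, so a match in 1 gene is common. The E-box CANNTG, found in 66.0% of windows, was present in S100b, Fabp7 and Nkx2-2, and its form CACGTG, found in 6.05% of windows and read by MYC among other factors, was present in Nkx2-2 only of these 4, at 173 bases upstream and directly beside the half-site. The SOX core AACAAT, found in 9.65% of windows, was in none of the 4 windows. These matches describe the letters of the windows and were not tested as binding sites.

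S100b encodes a calcium-binding protein of astrocytes and lies on chromosome 10 (NCBIM37, 75716598 to 75723904). It stood at 57.3, 39.2 and 37.8 CPM in controls 1 to 3 and at 86.3, 82.9, 83.1 and 92.1 CPM in WDR11OE 1 to 4. Every WDR11OE tumor lay above every control, and the 4 WDR11OE values spanned no more than 1.11-fold. S100b rose by a log2 fold change of 0.94 ± 0.15 (SE, adjusted p = 0.00359; two-sided exact permutation test of log2 CPM over the 35 ways to divide the tumors, p = 0.0286, the smallest it can give). It passed under all 18 alternative settings, with log2 fold changes between 0.83 and 1.16.

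Fabp7 encodes the brain lipid-binding protein of radial glia and immature astrocytes (chromosome 10, 57504687 to 57508256). Its level was 6.86, 12.9 and 4.84 CPM in controls and 17.1, 17.8, 19.0 and 27.6 CPM in WDR11OE tumors. The groups did not overlap, with the highest control (replicate 2) below the lowest WDR11OE tumor (replicate 1). Fabp7 rose by a log2 fold change of 1.31 ± 0.35 (SE, adjusted p = 0.0253; two-sided exact permutation test, p = 0.0286). The call was lost without control 1 (adjusted p = 0.0803), without control 3 (adjusted p = 0.0620) and without WDR11OE 3 (adjusted p = 0.0512), and with a trend on GC content removed (log2 fold change 0.92, adjusted p = 0.0777).

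Vim encodes vimentin, an intermediate filament protein of radial glia, astrocytes and many cells outside the glial lineages (chromosome 2, 13495554 to 13504453). It was measured at 275, 401 and 356 CPM in controls and at 276, 251, 240 and 228 CPM in WDR11OE tumors. The groups overlapped, since control 1 lay just under WDR11OE 1. Vim fell by 0.47 ± 0.14 (SE) on the log2 scale (adjusted p = 0.0342; two-sided exact permutation test, p = 0.0571). This call was lost without any 1 of the tumors other than control 1, with adjusted p-values between 0.0603 and 0.113, with the counts of WDR11OE 1 and 2 summed (-0.55, adjusted p = 0.0674), and with the GC trend removed (adjusted p = 0.224).

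A list of skeletal muscle genes was also higher by label: 15 of 15 tested genes rose, beside 18.1% of all genes tested. Their summed level was 5.98 to 12 CPM in controls and 144, 85.1, 207 and 70.9 CPM in WDR11OE 1 to 4. Among the WDR11OE tumors this sum was lowest in WDR11OE 4, where S100b and Fabp7 were highest. Of the defining markers of muscle, myoglobin (Mb) was at 0 in the 3 controls and at 1.38 to 4.78 CPM in the WDR11OE tumors. The part of muscle in the changes of S100b and Fabp7 was not tested.

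**Figure D2:**
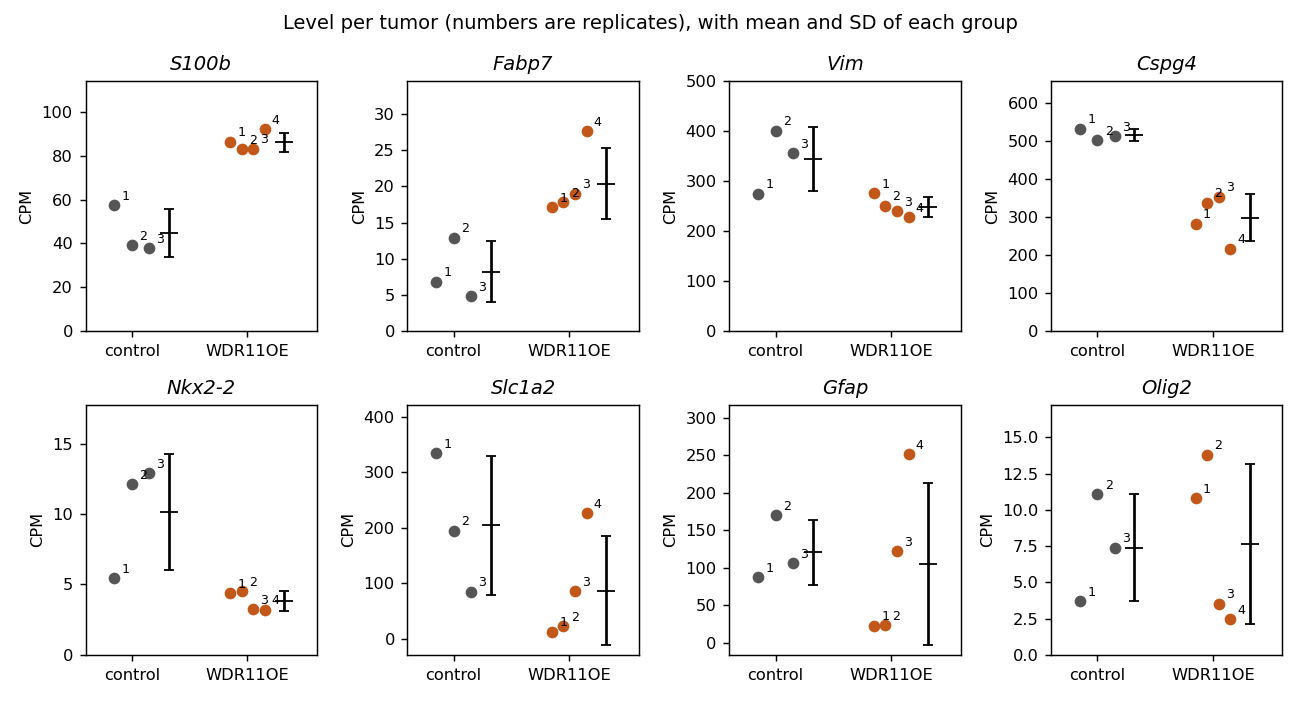
Each panel gives the level of 1 gene in CPM per tumor, with the control tumors in grey, the WDR11OE tumors in orange, the replicate number beside each point, and the mean with SD of each group as a bar. S100b and Fabp7 are higher and Cspg4 and Nkx2-2 lower in every WDR11OE tumor, whereas Slc1a2, Gfap and Olig2 spread widely among the 4 WDR11OE tumors.

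The other astrocyte genes differed mainly among the WDR11OE tumors rather than between the groups. Gfap, the filament protein of mature and reactive astrocytes, was at 87.1, 170.0 and 106 CPM in controls and at 22.5, 23.6, 122 and 252 CPM in WDR11OE 1 to 4. The lowest and the highest of the 7 values were both in tumors labelled WDR11OE, 11.2-fold apart, and the log2 fold change was -0.20 ± 0.84 (SE, adjusted p = 0.880). The titles of WDR11OE 1 and 2 share a number that the sources do not explain, and these were the tumors with little Gfap.

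Genes of glutamate handling showed this order to different degrees. Slc1a2, the main glutamate transporter of astrocytes, was at 334, 195 and 84.7 CPM in controls and at 13.0, 22.4, 85.4 and 226 CPM in WDR11OE tumors. WDR11OE 1 and 2 lay under every other tumor, and the fitted difference of -1.23 ± 0.95 (SE) did not pass (adjusted p = 0.366). Slc1a3, the other glial glutamate transporter, was at 91.2 to 123 CPM in controls and at 94.8 to 196 CPM in WDR11OE tumors (log2 fold change 0.30, adjusted p = 0.434). Glul, the glutamine synthetase that converts the glutamate taken up, was at 261 to 309 CPM in controls and at 218, 181, 241 and 374 CPM in WDR11OE tumors (-0.14, adjusted p = 0.702). Its range in the WDR11OE tumors was 2.07-fold, against 17.4-fold for Slc1a2.

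Genes of the endfeet and of coupling between astrocytes ranged widely, with 1 exception. Aqp4, the water channel of the endfeet, was at 26.2 to 45.4 CPM in controls and at 9.43, 10.9, 32.2 and 77.3 CPM in WDR11OE tumors (log2 fold change -0.16, adjusted p = 0.891). Slc4a4, a sodium bicarbonate cotransporter, was at 9.07 to 24.8 CPM in controls and at 2.34, 2.71, 33.2 and 77.5 CPM in WDR11OE tumors, a 33.0-fold range (0.60, adjusted p = 0.734). Gjb6, the connexin 30 gene, was at 0.889 to 3.60 CPM in controls and at 0.142, 0.212, 3.51 and 6.23 CPM in WDR11OE tumors, a 43.9-fold range (-0.03, adjusted p = 0.989). The low end of that range rests on 6 counts in WDR11OE 1. In all 3 genes WDR11OE 1 and 2 lay under every control and WDR11OE 4 above every control. Mlc1, which encodes a membrane protein of the endfeet, was at 6.25 to 15.9 CPM in controls and at 2.44, 1.83, 13.2 and 27.1 CPM in WDR11OE tumors (0.05, adjusted p = 0.975). Hepacam, which encodes a cell adhesion partner of MLC1, was at 2.82 to 6.29 CPM in controls and at 0.876, 0.836, 3.45 and 5.96 CPM in WDR11OE tumors (-0.79, adjusted p = 0.450). Both had their lowest 2 values in WDR11OE 1 and 2. Gja1, the connexin 43 gene, stood apart, at 118 to 146 CPM in controls and at 112, 122, 125 and 124 CPM in WDR11OE tumors, a range of 1.11-fold (-0.10 ± 0.09 (SE), adjusted p = 0.417).

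Metabolic and receptor genes of astrocytes followed the order of Gfap. Aldh1l1, a folate enzyme used as a general astrocyte marker, was at 2.88 to 8.78 CPM in controls and at 2.13, 2.52, 10.9 and 15.3 CPM in WDR11OE tumors (log2 fold change 0.26, adjusted p = 0.826). Aldoc, the brain form of aldolase, was at 14.2 to 42.3 CPM in controls and at 13.8, 20.8, 33.0 and 80.9 CPM in WDR11OE tumors (0.31, adjusted p = 0.750). Acsbg1, an acyl-CoA synthetase, was at 5.82 to 10.9 CPM in controls and at 3.77, 4.59, 13.5 and 25.2 CPM in WDR11OE tumors (0.42, adjusted p = 0.669). In each of the 3 genes WDR11OE 3 and 4 lay above WDR11OE 1 and 2 and WDR11OE 4 was the highest of all tumors. Ntsr2, a neurotensin receptor of astrocytes, had the same order, with 1.32 to 4.53 CPM in controls and 0.308, 0.324, 3.76 and 11.6 CPM in WDR11OE tumors (0.30, adjusted p = 0.880).

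Genes of secreted proteins varied less among the WDR11OE tumors than Gfap, from 1.37-fold for Sparcl1 to 2.9-fold for Cpe against 11.2-fold. Sparcl1, which encodes a matrix protein, was at 269 to 360 CPM in controls and at 307 to 420 CPM in WDR11OE tumors (log2 fold change 0.20, adjusted p = 0.344). Cpe, the carboxypeptidase that processes peptide hormones, was at 121 to 134 CPM in controls and at 60.7, 61.1, 94.7 and 176 CPM in WDR11OE tumors (-0.39, adjusted p = 0.470). Leaving out WDR11OE 4, the one WDR11OE tumor above the controls, brought Cpe past the threshold (-0.83, adjusted p = 0.0131). Apoe, a lipid carrier made by astrocytes and microglia, was at 79.0, 398 and 127 CPM in controls and at 110 to 265 CPM in WDR11OE tumors (-0.22, adjusted p = 0.798), and Tnc, which encodes tenascin C, was at 16.5 to 32 CPM and at 16.4 to 39.2 CPM (0.25, adjusted p = 0.653). Apoe was the one astrocyte member whose extremes were both controls, 5.04-fold apart.

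**Figure D3:**
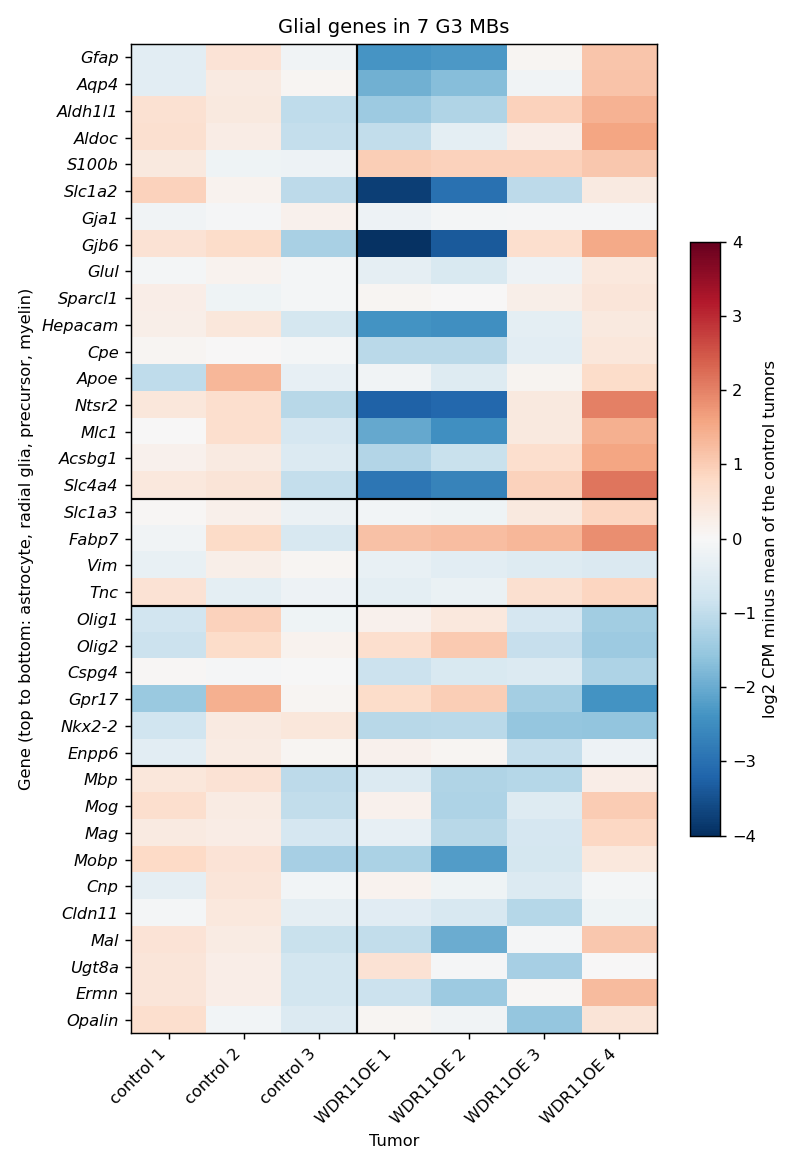
Color gives the log2 CPM of each of the 37 genes (rows, grouped by role) in each of the 7 tumors (columns), minus the mean of the 3 control tumors, with red for higher and blue for lower. Most astrocyte rows are blue in WDR11OE 1 and 2 and red in WDR11OE 4, the precursor rows Olig1, Olig2 and Gpr17 show the opposite order, and S100b and Fabp7 are red in all 4 WDR11OE tumors.

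Counted over the lineage, WDR11OE 3 and 4 both lay above WDR11OE 1 and 2 in 19 of the 21 astrocyte and radial glia genes (90.5%, against 32.6% of all genes tested), the exceptions being S100b and Vim. WDR11OE 1 and 2 were the lowest 2 of the 7 tumors in 12 of the 21 genes (57.1%, against 16.7% of all genes), and WDR11OE 4 was the highest tumor in 16 of 21 (76.2%, against 25.0%). These counts describe an order seen in the data and carry no test, since the genes of a lineage are measured in the same tumors. The median SD of log2 CPM among the 4 WDR11OE tumors was 1.40 for the 17 astrocyte genes, 0.40 for the 4 radial glia genes and 0.20 for all genes tested. Among the 3 controls it was 0.60, 0.39 and 0.21. A wide spread was not particular to astrocyte genes. In WDR11OE tumors and controls the median SD was 2.36 and 1.17 for 19 neuron genes, 0.67 and 0.74 for the precursor genes and 0.81 and 0.64 for the myelin genes. Total counts in WDR11OE 1 to 4 were 42252257, 85371523, 32116095 and 87141305, and the part of depth in this order was not tested.

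Neuron markers moved with the astrocyte order among the WDR11OE tumors. Among the controls, the median log2 CPM relative to the control mean was highest in control 1 for neuron genes (1.2). For the 17 astrocyte genes it was highest in control 2 (0.37), and both medians were lowest in control 3. The summed level of 19 neuron genes was 618, 203 and 108 CPM in controls and 24.7, 51.2, 290.0 and 909 CPM in WDR11OE tumors. None of the 19 passed the test by edgeR, DESeq2 or limma with voom, or had an unadjusted p under 0.05 in edgeR. Among all genes tested, 18.1% rose and 15.8% fell in edgeR. WDR11OE 3 and 4 both lay above WDR11OE 1 and 2 in 18 of the 19 neuron genes (94.7%, against 32.6% of all genes tested). The lowest log2 fold change of the neuron list was that of Nrgn (-2.51, adjusted p = 0.123) and the highest that of Gad1 (2.28, adjusted p = 0.378). With these markers as a covariate, Slc1a2 (-1.15, adjusted p = 0.000683), Slc1a3 (0.41, adjusted p = 0.0295) and Tnc (0.45, adjusted p = 0.0448) also passed, and S100b, Fabp7 and Vim still did. Without the 2 tumors with the most neuron marker counts, WDR11OE 4 and control 1, S100b, Vim and Cpe passed and Fabp7 did not (0.97, adjusted p = 0.102). There, 14.0% of all genes tested were higher and 17.8% lower. The microglia and macrophage list was also lower in WDR11OE 1 and 2 than in WDR11OE 3 and 4, with summed levels of 215, 469 and 268 CPM in controls and 241, 236, 338 and 455 CPM in WDR11OE tumors. It had 0 of 14 genes past the test by any of the 3 tools, 0 at an unadjusted p under 0.05 in edgeR, its lowest value for Cd68 (-0.71) and its highest for Aif1 (0.92). The part of neurons, microglia and macrophages in the astrocyte order was not tested.

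Genes of the oligodendrocyte precursor stage held both members of that lineage that passed. Cspg4 encodes the NG2 proteoglycan, which marks precursors and also pericytes (chromosome 9, 56712911 to 56747677). It was at 532, 502 and 513 CPM in controls and at 282, 338, 353 and 217 CPM in WDR11OE tumors. The 3 controls lay within 1.06-fold of each other and all above every WDR11OE tumor. Cspg4 fell by 0.79 ± 0.16 (SE) on the log2 scale (adjusted p = 0.00949; two-sided exact permutation test, p = 0.0286). It passed under 17 of 18 alternative settings and was lost with the GC trend removed (-0.45, adjusted p = 0.145).

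Some pericyte and vessel markers fell as well. Of 11 endothelium and pericyte genes, 3 fell, beside 15.8% of all genes tested. These were Pdgfrb, the growth factor receptor of pericytes (-0.60, adjusted p = 0.00865), and the endothelial genes Flt1 (-0.74, adjusted p = 0.00151) and Cdh5 (-1.02, adjusted p = 0.00238). The pericyte genes Rgs5 (0.22, adjusted p = 0.25) and Kcnj8 (-0.04, adjusted p = 0.964) did not pass. The list summed to 301 to 318 CPM in controls and to 213 to 266 CPM in WDR11OE tumors, and its highest fold change was that of Slco1a4 (0.52, adjusted p = 0.686). The part of these cells in the change of Cspg4 was not tested.

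Nkx2-2 encodes a transcription factor of precursors and of their differentiation (chromosome 2, 147003282 to 147019979). Its level was 5.45, 12.1 and 12.9 CPM in controls and 4.36, 4.53, 3.24 and 3.20 CPM in WDR11OE tumors. The groups did not overlap, although control 1 lay much nearer to the WDR11OE tumors than to the other controls. Nkx2-2 fell by 1.40 ± 0.32 (SE) on the log2 scale (adjusted p = 0.0133; two-sided exact permutation test, p = 0.0286). Without control 2 the value was -1.26 and the call was lost (adjusted p = 0.0527).

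The other precursor genes did not pass and spread over both groups. Olig1, a basic helix-loop-helix factor of the lineage, was at 10.7, 35 and 16.4 CPM in controls and at 20.5, 24.6, 11.4 and 6.91 CPM in WDR11OE tumors (log2 fold change -0.39, adjusted p = 0.620). Olig2, its partner in specifying the lineage, was at 3.72, 11.1 and 7.39 CPM in controls and at 10.8, 13.8, 3.54 and 2.46 CPM in WDR11OE tumors (0.05, adjusted p = 0.964). Gpr17, a receptor of precursors committed to differentiate, was at 7.70, 57.0 and 22.4 CPM in controls and at 35.4, 42.3, 8.35 and 4.11 CPM in WDR11OE tumors (-0.37, adjusted p = 0.794). In all 3 genes control 2, WDR11OE 1 and WDR11OE 2 were the highest tumors and WDR11OE 4 the lowest. Enpp6, an enzyme of newly forming oligodendrocytes, was at 3.08 to 5.15 CPM in controls and at 4.64, 4.34, 2.10 and 3.56 CPM in WDR11OE tumors (-0.19, adjusted p = 0.683).

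This order was the reverse of that of the astrocyte genes. WDR11OE 3 and 4 both lay below WDR11OE 1 and 2 in 5 of the 6 precursor genes (83.3%, against 29.9% of all genes tested), the exception being Cspg4. WDR11OE 4 was the lowest tumor in 5 of the 6 (83.3%, against 15.4%), the exception being Enpp6. The median log2 CPM of the precursor genes relative to the control mean was 0.17 and 0.25 in WDR11OE 1 and 2 and -0.94 and -1.42 in WDR11OE 3 and 4. For the 17 astrocyte genes the same measure was -1.43 and -1.19 in WDR11OE 1 and 2 and 0.23 and 1.12 in WDR11OE 3 and 4.

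**Figure D4:**
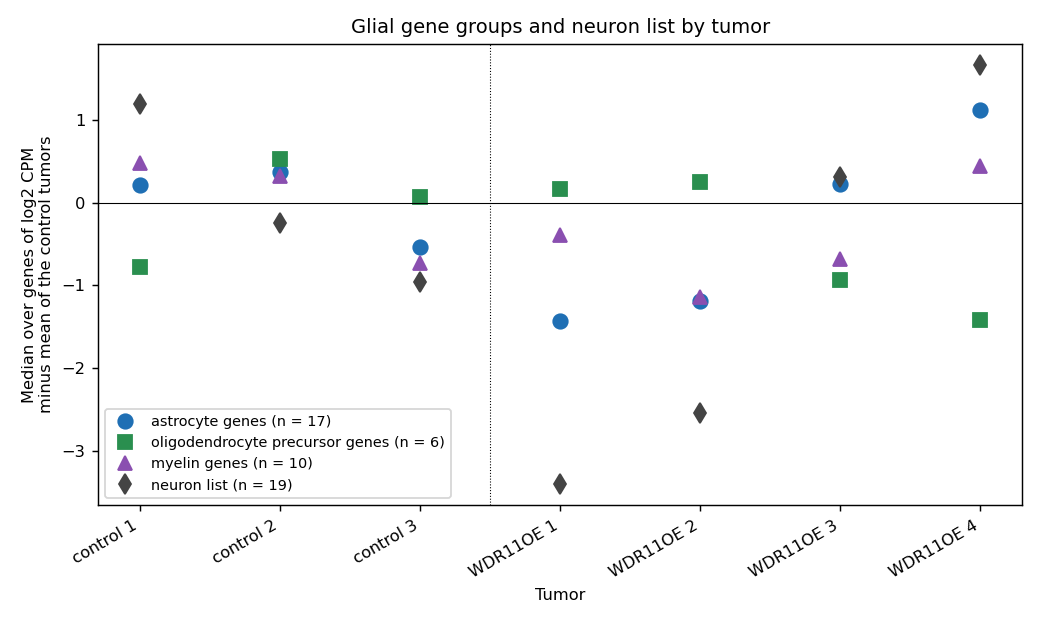
Each symbol is the median over the genes of 1 group of the log2 CPM in a tumor minus the mean of the 3 control tumors: 17 astrocyte genes (circles), 6 precursor genes (squares), 10 myelin genes (triangles) and 19 neuron genes (diamonds). In WDR11OE 1 and 2 the astrocyte and neuron symbols lie below and the precursor symbols above 0, and in WDR11OE 3 and 4 this is turned around.

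None of the 10 myelin genes passed in either direction by edgeR, DESeq2 or limma with voom, or at an unadjusted p under 0.05 in edgeR. Among all genes tested, 18.1% rose and 15.8% fell in edgeR. A negative log2 fold change was found in 9 of the 10, and in 7681 of the 17389 genes tested. The 10 genes were measured in the same tumors, so this count of signs carries no test. Mbp, which encodes myelin basic protein, was at 135, 149 and 47.9 CPM in controls and at 67.4, 43.2, 44.9 and 118 CPM in WDR11OE tumors (-0.69, adjusted p = 0.311). Mobp, another basic protein of myelin, was at 65.1, 55.2 and 15.1 CPM in controls and at 15.6, 8.08, 23.4 and 50.7 CPM in WDR11OE tumors (-0.88, adjusted p = 0.365). Controls 1 and 2 were high and control 3 low for both genes, so the spread within the controls was as wide as the distance between the groups.

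Membrane proteins of myelin lay at lower levels. Mag, the adhesion protein of the inner myelin layer, was at 5.09 to 10.4 CPM in controls and at 6.39, 3.76, 5.05 and 14.4 CPM in WDR11OE tumors (log2 fold change -0.19, adjusted p = 0.799). Mog, on the outer surface of myelin, was at 0.797 to 2.50 CPM and at 1.80, 0.674, 1.11 and 3.23 CPM (-0.05, adjusted p = 0.960). Mal, a proteolipid, was at 3.62 to 9.70 CPM and at 3.34, 1.67, 6.41 and 14.0 CPM (-0.19, adjusted p = 0.865). All 3 genes were lowest in WDR11OE 2 and highest in WDR11OE 4. Ermn, which encodes the cytoskeletal protein ermin, shared both extremes, with 1.32 to 3.11 CPM in controls and 1.21, 0.811, 2.31 and 5.29 CPM in WDR11OE tumors (0.03, adjusted p = 0.978).

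The remaining myelin genes were lowest in WDR11OE 3. Cnp, a phosphodiesterase of oligodendrocytes, was at 24.5 to 43.9 CPM in controls and at 34.6, 28.1, 21.7 and 30.1 CPM in WDR11OE tumors (log2 fold change -0.18, adjusted p = 0.589). Cldn11, the claudin of myelin tight junctions, was at 10.2 to 17.6 CPM and at 9.57, 8.36, 5.89 and 11.6 CPM (-0.60 ± 0.27 (SE), adjusted p = 0.135). Ugt8a, the enzyme that makes galactocerebroside, was at 4.26 to 9.92 CPM and at 10.5, 6.80, 2.83 and 7.19 CPM (-0.14, adjusted p = 0.845). Among these, WDR11OE 1 held the highest of all values for Ugt8a. Opalin, a membrane protein of oligodendrocytes, was the least abundant member, at 0.368 to 0.862 CPM in controls and 0.568, 0.487, 0.185 and 0.778 CPM in WDR11OE tumors (-0.17, adjusted p = 0.830).

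Levels of different genes were compared as mean CPM per kilobase of exon over the 7 tumors. In the astrocyte lineage, Vim (124), Sparcl1 (106), Apoe (93.5) and Glul (79.3) led, and Gjb6 (1.12) and Hepacam (1.10) were lowest. In the oligodendrocyte lineage, Cspg4 stood at 48.6 CPM per kilobase, followed by Mbp at 10.3, Cnp at 8.32 and Olig1 at 8.25, and Opalin was lowest at 0.291. Cspg4 thus lay well above the other members of its lineage in these tumors, including Olig2 at 3.09 and Nkx2-2 at 2.27. Neighbours such as Cnp and Olig1, or Gjb6 and Hepacam, differed by less than their spread over the tumors.

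Other genes of both lineages were read from lists written by role, beside the 18.1% of all genes tested that rose and the 15.8% that fell. Of 29 other astrocyte genes tested, 3 rose (Ppp1r3c, Clu, Slc15a2) and 5 fell (Sox9, Nfia, Nfib, Fgfr2, Mt1), with a median log2 fold change of 0.19. Sox9, a transcription factor that starts gliogenesis, was at 183, 158 and 168 CPM in controls and at 49.1, 56.8, 78.1 and 51.6 CPM in WDR11OE tumors, and fell by 1.53 ± 0.16 (SE) on the log2 scale (adjusted p = 0.00112). Nfia, an NFI factor that acts with SOX9 in astrocyte formation, was at 137, 161 and 184 CPM in controls and at 52.6, 52.1, 73.1 and 58.0 CPM in WDR11OE tumors, and fell by 1.45 ± 0.15 (SE, adjusted p = 0.00107). All 4 WDR11OE tumors lay below every control for both, whereas Gfap and Slc1a2 overlapped. Nfib, a related factor, fell by 0.82 (adjusted p = 0.00286) and Fgfr2, a growth factor receptor, by 0.97 (adjusted p = 0.00131), and the highest value was that of Ppp1r3c, a regulator of glycogen (1.03, adjusted p = 0.00582).

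Of 14 genes of reactive astrocytes, 1 rose (Cp, 0.85, adjusted p = 0.0331) and 5 fell (Lcn2, C3, Cd44, Emp1, Steap4). The lowest was Lcn2, a secreted lipocalin, at 1.72, 16.4 and 4.38 CPM in controls and at 0.403 to 0.887 CPM in WDR11OE tumors (-3.55 ± 0.76 (SE), adjusted p = 0.0110), and the highest was Osmr, a cytokine receptor (1.11, adjusted p = 0.202). Of 12 genes of radial glia and neural stem cells, 1 rose (Fabp5, a relative of Fabp7, 0.75, adjusted p = 0.0121) and 2 fell, Notch1 (-0.64, adjusted p = 0.0155) and Msi1, which encodes an RNA-binding protein of neural stem cells. Msi1 was at 29.3 to 35 CPM in controls and at 6.13 to 8.68 CPM in WDR11OE tumors (-2.07 ± 0.15 (SE), adjusted p = 0.000858).

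Of 17 other precursor genes, none rose (1 was higher at an unadjusted p under 0.05 in edgeR, 0 by DESeq2 and limma with voom) and 3 fell: Sulf2, an enzyme that edits heparan sulfate, Pdgfra, the growth factor receptor of precursors, and Cnksr3. Sulf2 was at 229 to 243 CPM in controls and at 59.0 to 111 CPM in WDR11OE tumors (-1.41 ± 0.19 (SE), adjusted p = 0.00203). Pdgfra was at 227, 166 and 159 CPM in controls and at 139, 115, 115 and 108 CPM in WDR11OE tumors (-0.62 ± 0.15 (SE), adjusted p = 0.0152). Neither gene overlapped between the groups, as with Cspg4, and Lhfpl3 had the highest value of the list (0.87, adjusted p = 0.151). Of 27 other myelin genes, none rose (0 at an unadjusted p under 0.05 in edgeR and 0 by DESeq2 and limma with voom) and 3 fell: Sirt2 (-0.52, adjusted p = 0.0112), Lpar1 (-0.94, adjusted p = 0.00371) and Prx (-0.76, adjusted p = 0.0102). The ends of that list were Gm98 (-1.38, adjusted p = 0.0688) and Aspa (1.41, adjusted p = 0.303).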

How the data were processed

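RNA of 7 G3 MBs was sequenced and analysed (4 labelled WDR11OE, 3 control). The authors mapped reads against NCBIM37.67 (mm9) with the StrongArm pipeline and obtained gene counts from HT-seq with GENCODE gene models. The submitters' processing notes also name STAR, BWA and CASAVA 1.7. The deposited counts were not normalized. The labels name a TruSeq RNA v2 kit and the methods stranded total RNA, and the strand setting and the treatment of reads that fit several genes are not given in the sources used here.

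From these counts, filterByExpr of edgeR 4.0.16 (R 4.3.3) kept 17389 of 34592 genes. TMM scaled them, and edgeR's quasi-likelihood test (two-sided, condition as the only term, Benjamini-Hochberg over all of them) compared the groups. The biological coefficient of variation was 34.6%. The SE of a log2 fold change was derived as its absolute value divided by the square root of its F statistic. CPM carry no prior count, and exact permutation tests used log2 CPM with a prior count of 2. Coordinates and exon lengths came from GENCODE vM1 (33606 genes, 97.1%, matched). The fit was tested on simulated data.

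Members and lists were chosen with earlier results of these data known. Every member was named, and of each other list its ends and genes at 0 in all tumors. Other genes that passed, Mki67, Mb and WDR11 were named outside this rule, after their values were seen. Replicate numbers follow sample order and are names only. Alternatives were limma 3.58.1 with voom, DESeq2 1.42.0, other scalings and filters, a stricter threshold, removal of a GC trend, leaving out each tumor, and summing WDR11OE 1 and 2. A neuron marker covariate and leaving out 2 tumors together were added after seeing the data.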

Additional observations from a re-analysis of the deposited data

How the results depend on the processing

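No value of a member or a lineage count that had passed the test changed its sign under any alternative. Over the members, 645 values kept their side of the threshold, 15 lost it and 5 gained it. Of the astrocyte and radial glia genes, the 2 that rose became 1 (S100b) with the GC trend removed, at an adjusted p under 0.01 and without the 2 tumors with the most neuron marker counts, 4 with neuron markers as a covariate, and 1 to 2 when 1 tumor was left out. The 1 that fell became 0 with the GC trend removed, at an adjusted p under 0.01 and with WDR11OE 1 and 2 summed, 2 with either alternative on neuron markers, and 0 to 1 when 1 tumor was left out. Of the oligodendrocyte lineage genes, the 2 that fell became 1 with the GC trend removed (Nkx2-2) and at an adjusted p under 0.01 (Cspg4), and 1 to 2 when 1 tumor was left out, while 0 rose under each alternative. The 2-fold calls went from 1 to 0 for higher genes with the GC trend removed, from 1 to 2 for lower genes with neuron markers as a covariate (Slc1a2), and to 0 to 1 for each direction when 1 tumor was left out. Without control 1, and without both tumors with the most neuron marker counts, the gene called 2-fold higher was S100b and not Fabp7. The cause of these changes was not tested.

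The median log2 fold change of the astrocyte and radial glia genes lay near 0 and took either sign, from -0.43 without WDR11OE 4 to 0.28 without control 2 when 1 tumor was left out, and -0.48 without both tumors with the most neuron marker counts. That of the oligodendrocyte lineage genes was negative throughout, from -0.62 without WDR11OE 4 to -0.06 without control 2. Over all genes tested, calls fell from 5894 to 3220 with the GC trend removed, to 3571 without WDR11OE 1, to 3853 without WDR11OE 2 and to 3716 with WDR11OE 1 and 2 summed. With neuron markers as a covariate they rose to 7543. No paired analysis was possible because the labels give the groups no shared replicate numbers.

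The limits are few tumors (the exact test cannot go below 0.0286), 1 tumorsphere line, libraries numbered by condition, unsorted tissue and a human WDR11 row that does not separate the groups. Some members had few counts in single tumors. Gjb6 had 6 and 17 counts in WDR11OE 1 and 2, and Opalin had 6 in WDR11OE 3.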

Other observations

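Genes of granule neuron progenitors and of the tumor were read beside the glial genes, with 18.1% of all genes tested higher and 15.8% lower. Atoh1, the factor that defines granule neuron progenitors, was at 0 counts in all 7 tumors. Of 13 genes tested, Top2a, a gene of dividing cells, rose (0.70, adjusted p = 0.00593), Mki67, another gene of dividing cells, had a negative value that did not pass (-0.30, adjusted p = 0.0949), and 2 genes fell, Myc (-1.40, adjusted p = 0.00227) and En2 (-1.10, adjusted p = 0.0208). The ends of the list were Myc and Cbln1 (1.76, adjusted p = 0.318). Myc was at 1110, 821 and 812 CPM in controls and at 390, 431, 278 and 289 CPM in WDR11OE tumors, and the count does not separate the retroviral from the endogenous gene. Of 7 Schwann cell genes, 1 fell, Prx, and the highest was Drp2 (0.35, adjusted p = 0.731). Among the muscle genes the smallest change was that of Ttn (1.72, adjusted p = 0.0262). Mb, at 0 counts in the 3 controls, gives no fold change to rank.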
